A study of Homo sapiens with 6 samples.

Results

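The G1 cyclins and their kinases are the machinery that carries a cell from the first growth phase (G1) into DNA synthesis. They were taken by name as 8 genes: the D-type cyclins CCND1, CCND2 and CCND3, the E-type cyclins CCNE1 and CCNE2, and the cyclin-dependent kinases CDK2, CDK4 and CDK6. All 8 had 1 row in each of the 3 expression tables, which together list 17066 gene names. The RNA-seq data came from 6 samples of K562, an established human chronic myeloid leukemia line with a BCR-ABL fusion, in 3 groups of 2 replicates. CTR cells carried an empty vector, CEBPA cells a Tet-inducible wild-type C/EBPα and P30 cells its Tet-inducible p30 isoform, in stable lines made with a PiggyBac transposon. All 3 groups received 200 ng/ml doxycycline for 48 h, so that the drug was common to them. The isoforms were thus expressed in a leukemic line that lacks C/EBPα of its own. Whether each line was 1 clone or a pool is not given in the sources used here, and differences between separately made lines cannot be told apart from effects of the transgenes.

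In G1, mitogenic signals raise the D-type cyclins, which bind CDK4 and CDK6 and begin to phosphorylate the retinoblastoma protein. This releases E2F factors, which switch on the E-type cyclins, and cyclin E with CDK2 completes the phosphorylation and starts replication. Small inhibitor proteins of the INK4 and CIP/KIP families hold these kinases back. In myeloid cells, which of the D-type cyclins is used differs between lineages and stages, and C/EBPα is known as a factor that couples granulocytic differentiation to exit from the cell cycle.

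Each deposited value is 1 FPKM per gene and group, that is, fragments scaled to the length of the transcripts and to the size of the library, with both replicates pooled. FPKM is per length, so levels of different genes can be compared and added. No spread between replicates and no depth can be had from these values, so no error or p-value is given and each comparison describes pooled values. Whether neighbours in an order of levels differ beyond replicate spread is therefore unknown. Changes are differences of log2(FPKM + 1), which understate the change of low genes, among genes above 1 FPKM in 1 or both groups of a comparison. A gene was counted as changed when it was higher or lower by 1.5-fold or more, or by 2-fold or more, on that scale. The median change over all genes compared was -0.01 in CEBPA vs CTR, 0.02 in P30 vs CTR and -0.04 in CEBPA vs P30. A row for CEBPA itself was not analysed here, so the transgene was not checked in these values.

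The cells were set against marker lists. Of 9 erythroid markers, which K562 cells are known to express, 5 had a row. GATA1, the erythroid master transcription factor, had 185 FPKM in CTR, 193 FPKM in P30 and 53.1 FPKM in CEBPA, and the 5 together summed to 1392, 894 and 632 FPKM. KLF1, an erythroid factor, and EPOR, the erythropoietin receptor, were also lowest in CEBPA, at 42.3 and 12.9 FPKM against 160 and 42.2 FPKM in CTR. In P30 these 2 genes had 115 and 30.8 FPKM, which is below CTR too, with log2 changes of -0.47 and -0.44. HBG1, a fetal globin, was about as low in P30 as in CEBPA, at 410 and 389 FPKM against 872 FPKM in CTR, and TFRC, the transferrin receptor, had 133, 145 and 134 FPKM in CTR, P30 and CEBPA. Of 6 granulocyte markers 4 had a row, and they summed to 3.96 FPKM in CTR, 23.6 FPKM in P30 and 8415 FPKM in CEBPA, nearly all of it from S100A8 and S100A9. Of 5 lymphoid markers 3 had a row, with sums of 13.2 FPKM in CTR, 13.2 FPKM in P30 and 4.34 FPKM in CEBPA, and none of the markers with a row was at 0 in any group. GATA1, KLF1, EPOR and the granulocyte sum differed in CEBPA alongside several of the cyclins and kinases described here, and their part in those differences was not tested.

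CCND2, CDK2 and CDK4 share chromosome 12, and the other members lie elsewhere. In GRCh37, the assembly equivalent to the authors' hg19, CCND1 (ENSG00000110092) spans 69455924 to 69469242 on chromosome 11, CCND2 (ENSG00000118971) spans 4378937 to 4414519 on chromosome 12 and CCND3 (ENSG00000112576) spans 41902672 to 42018095 on chromosome 6. CCNE1 (ENSG00000105173) lies on chromosome 19 from 30302898 to 30315219. CCNE2 (ENSG00000175305) lies on a chromosome that holds no other member. CDK2 (ENSG00000123374) and CDK4 (ENSG00000135446) lie on chromosome 12 from 56360565 to 56366573 and from 58141510 to 58149796, and CDK6 (ENSG00000105810) on chromosome 7 from 92234235 to 92465887. The positions are those of a later Gencode release than the study's.

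Start-site windows of 300 bases, 250 before and 50 from the start site on, were at hand from RefSeq for 4 of the 8 genes: CCND3, CCNE1, CDK4 and CDK6. The windows of CDK4 and CDK6 are shown because these kinases, both partners of the D-type cyclins, parted in CEBPA cells. Capitals mark the E-box CACGTG, a palindrome read alike on both strands, which is the element known to be bound by MYC with MAX. Both windows are on the minus strand in GRCh37, the first at chr12:58146044-58146343 and the second at chr7:92465838-92466137, and each read from 5′ to 3′ of the gene.
CDK4: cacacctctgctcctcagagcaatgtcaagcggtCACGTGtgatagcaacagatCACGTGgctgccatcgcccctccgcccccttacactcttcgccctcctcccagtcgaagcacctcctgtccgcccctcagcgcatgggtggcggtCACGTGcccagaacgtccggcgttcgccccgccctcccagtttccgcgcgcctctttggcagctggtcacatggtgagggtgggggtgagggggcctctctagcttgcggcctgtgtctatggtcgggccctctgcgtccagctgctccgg
CDK6: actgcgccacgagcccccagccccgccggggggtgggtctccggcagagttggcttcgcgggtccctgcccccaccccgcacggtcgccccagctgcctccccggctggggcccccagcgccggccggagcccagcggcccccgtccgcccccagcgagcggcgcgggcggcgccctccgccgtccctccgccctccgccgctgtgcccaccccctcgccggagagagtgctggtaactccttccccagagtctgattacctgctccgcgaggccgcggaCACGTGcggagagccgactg

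The CDK4 window held 3 E-boxes, which start 216, 196 and 101 bases before the start site. The CDK6 window held 1, which starts at base 31 counted from the start site. Of all 35116 RefSeq windows of this length, 7.26% held an E-box and 0.0940% held 3 or more. The 3 windows of CCND3, the other window of CDK6 and the window of CCNE1 held none. The GC box GGGCGG, on either strand, occurred in 5 of the 7 windows of the members, against 45.0% of all windows. The window of CCNE1 held 7 matches, and the windows of CCND3 with a match held 5 and 4. The windows of CDK4 and CDK6 shown above held 3 each. Of all windows, 15.8% held 3 or more. CCAAT on either strand occurred in 2 of the 7 windows, both of CCND3, against 34.6% of all. A C/EBP site pattern (TTGCNNAA, either strand) occurred in 0 of the 7 windows and in 10.5% of all windows. The E2F patterns TTTCCCGC, TTTCGCGC, TTTGCCGC and TTTGGCGC, on either strand, occurred in 0 of the 7 and in 3.31% of all. These patterns share no full match with each other. A match describes letters only, and its absence from these windows says nothing about binding elsewhere.

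In control K562 cells the set was dominated by CDK4, CCND3 and CDK2. CDK4 had 197 FPKM in CTR, CCND3 183 and CDK2 85.2. CCNE1 followed with 23.3 FPKM, then CDK6 with 10.2, CCNE2 with 9.75, CCND2 with 3.05 and CCND1 with 0.591. Among the 12138 rows over 1 FPKM in CTR, CDK4 lay above 96.3% and CCND3 above 95.9%, whereas CCND2 lay above only 16.2%. CCND1 was the only member at or below 1 FPKM in CTR. In P30 cells CCND3 stood first, at 259 FPKM, ahead of CDK4 at 210, and CCNE2 stood ahead of CDK6. In CEBPA cells CDK4 was again first, at 109 FPKM, ahead of CCND3 at 99.7, and CDK6 stood ahead of CCNE1.

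**Figure D1:**
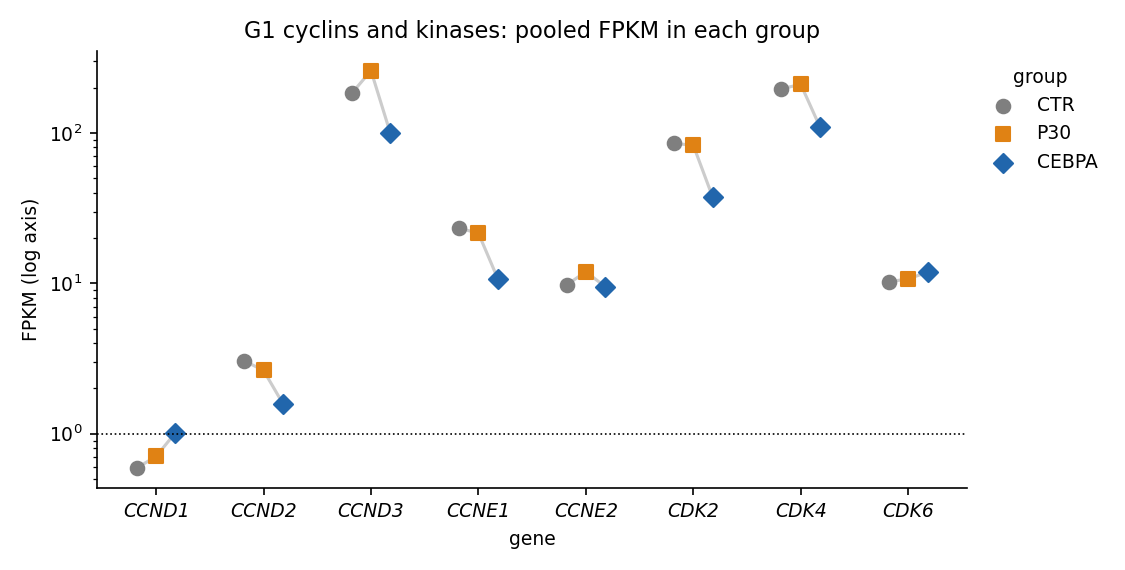
FPKM on a log axis of the 8 genes, each a pooled value over 2 replicates without error, in CTR (circles), P30 (squares) and CEBPA (diamonds), with a grey line that joins the groups of a gene and a dotted line at 1 FPKM. The CEBPA value was the lowest of the 3 for CCND2, CCND3, CCNE1, CCNE2, CDK2 and CDK4 and the highest for CCND1 and CDK6.

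The first comparison asked how wild-type C/EBPα altered this set. In CEBPA vs CTR, 6 of the 8 genes were lower and 2 were higher, where 50.5% of all genes were lower and 49.5% higher. The median log2 change of the 8 was -0.75, against -0.01 over all 13673 genes compared. CDK2, CCNE1, CCND3, CDK4 and CCND2 were at least 1.5-fold lower, which is 5 of 8 members, where 18.6% of all genes were. CDK2 and CCNE1 were at least 2-fold lower, which is 2 of 8 members against 6.92% of all genes. No member was at least 1.5-fold higher, where 24.0% of all genes were, or 2-fold higher, where 14.0% of all genes were.

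Of the D-type cyclins, which start the G1 program, CCND3 was the abundant one in every group. CCND3 had 183 FPKM in CTR, 259 FPKM in P30 and 99.7 FPKM in CEBPA, so that it was high in P30 and low in CEBPA. The log2 change of CCND3 in CEBPA vs CTR was -0.87, and 9.60% of all genes compared were as far down or farther. CCND2, a cyclin used widely in early hematopoietic cells, had 3.05 FPKM in CTR, 2.63 FPKM in P30 and 1.58 FPKM in CEBPA, a low level throughout that was lowest in CEBPA. Its log2 change in CEBPA vs CTR was -0.65. With a pseudocount of 0.1 in place of 1 it was -0.90, since the added 1 weighs on a value this low. CCND1, the cyclin known from many solid tumors, had 0.591 FPKM in CTR, 0.706 FPKM in P30 and 1.02 FPKM in CEBPA. It passed the filter through the CEBPA value alone, and its log2 change of 0.34 is among values close to the limit of the filter.

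Summed over the 3 genes, D-type cyclin RNA was 187 FPKM in CTR, 263 FPKM in P30 and 102 FPKM in CEBPA. CCND3 made up 98.0% of the sum in CTR, 98.7% in P30 and 97.5% in CEBPA. CCND2 made up 1.64%, 1.00% and 1.55%, and CCND1 0.317%, 0.268% and 0.993%. The sum followed CCND3, and no other D-type cyclin exceeded 1.58 FPKM in CEBPA cells.

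The E-type cyclins, which bind CDK2, did not move alike. CCNE1 had 23.3 FPKM in CTR, 21.5 FPKM in P30 and 10.7 FPKM in CEBPA, with CTR and P30 close and CEBPA well below. Its log2 change in CEBPA vs CTR was -1.05, with 6.14% of all genes as far down. CCNE2 had 9.75 FPKM in CTR, 11.9 FPKM in P30 and 9.48 FPKM in CEBPA, a log2 change of only -0.04 in CEBPA vs CTR. The ratio of CCNE1 to CCNE2 was 2.39 in CTR, 1.80 in P30 and 1.13 in CEBPA, so that the 2 cyclins stood near equal in CEBPA cells. Their sum was 33.0 FPKM in CTR, 33.4 FPKM in P30 and 20.2 FPKM in CEBPA.

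The kinases also parted. CDK2, the kinase of cyclin E, had 85.2 FPKM in CTR, 82.6 FPKM in P30 and 37.4 FPKM in CEBPA. Its log2 change in CEBPA vs CTR was -1.17, the lowest of the 8 genes, and 4.59% of all genes were as far down. CDK4 had 197 FPKM in CTR, 210 FPKM in P30 and 109 FPKM in CEBPA, a log2 change of -0.85 in CEBPA vs CTR with 10.1% of all genes as far down. CDK6, the other partner of the D-type cyclins, had 10.2 FPKM in CTR, 10.7 FPKM in P30 and 11.8 FPKM in CEBPA, a log2 change of 0.19.

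The ratio of CDK4 to CDK6 was 19.2 in CTR, 19.6 in P30 and 9.19 in CEBPA. CDK4 still supplied 90.2% of the sum of both in CEBPA cells, against 95.1% in CTR and 95.2% in P30. CDK4 and CDK6 together had 207 FPKM in CTR, 221 FPKM in P30 and 121 FPKM in CEBPA. The D-type cyclins and these kinases were lower to a similar extent in CEBPA, where D-type cyclin per kinase was 0.847, against 0.902 in CTR and 1.19 in P30. CDK2 per E-type cyclin was 2.58 in CTR, 2.47 in P30 and 1.85 in CEBPA.

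**Figure D2:**
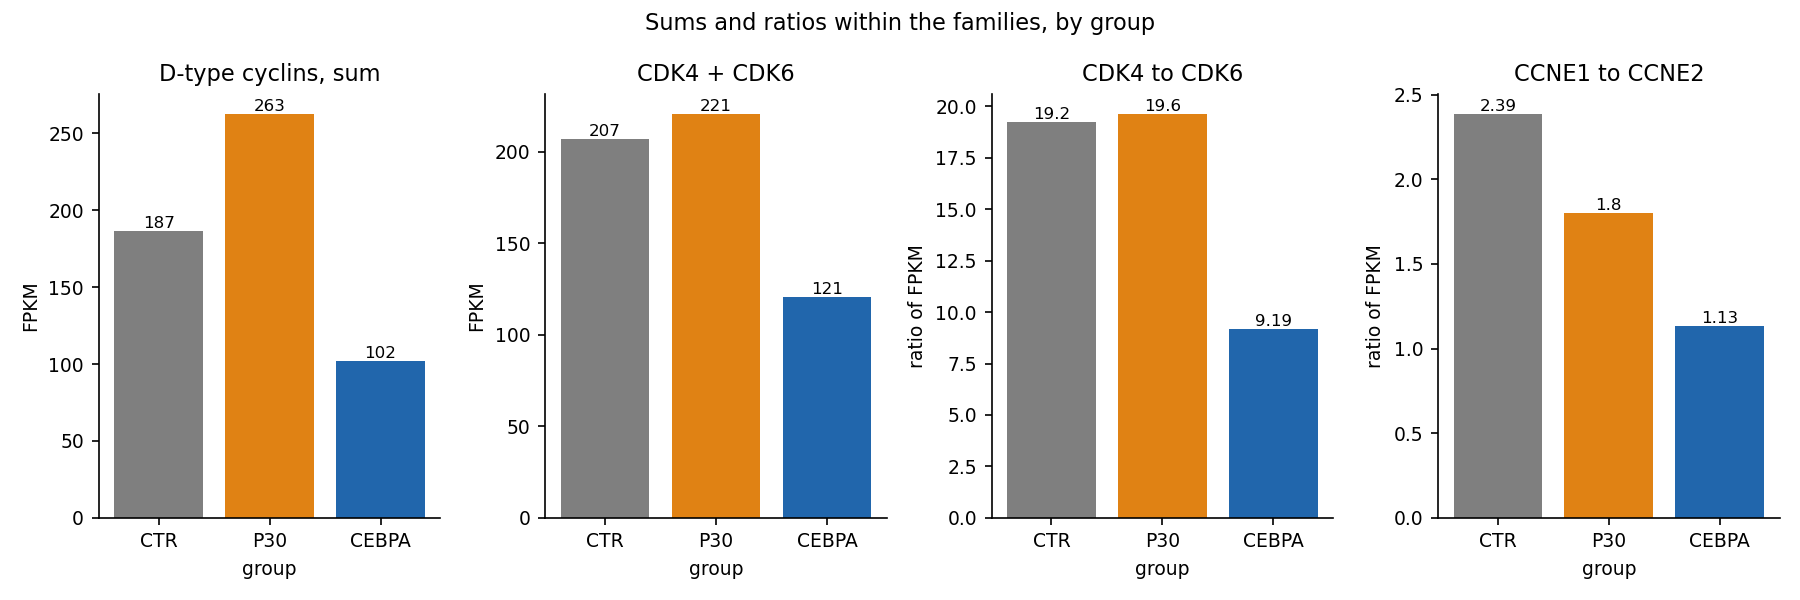
Bars from 0 of, from left to right, the summed FPKM of the D-type cyclins, the summed FPKM of CDK4 and CDK6, the ratio of CDK4 to CDK6 and the ratio of CCNE1 to CCNE2 in the 3 groups, each a pooled value without error. The D-type sum was 187, 263 and 102 FPKM, and the ratio of CDK4 to CDK6 was 9.19 in CEBPA against 19.2 in CTR and 19.6 in P30.

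The second comparison asked what the p30 isoform did to the same genes. In P30 vs CTR CCND1 was at or below 1 FPKM in both groups and was not compared. Of the other 7, 4 were higher and 3 lower, where 55.1% of all genes were higher and 44.9% lower. The median log2 change of the 7 was 0.06, against 0.02 over 12395 genes. No member was 1.5-fold higher or lower, where 2.69% of all genes were higher and 2.63% lower by that limit, and none was 2-fold higher or lower, where 1.02% and 0.613% were. The largest difference was in CCND3, at 259 FPKM against 183, which is 1.42 times the CTR value and 0.50 on the log2 scale. Of all genes compared, 3.66% were as far up. CCNE2 followed at 1.22 times and 0.27 on the log2 scale, and 11.9% of all genes were as far up. The others lay between -0.16 (CCND2) and 0.10 (CDK4), within the scaled median absolute deviation of 0.20 over all genes in this comparison.

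CEBPA cells were also set directly against P30 cells, a comparison that uses the same CEBPA libraries as the first and the same P30 libraries as the second. A western blot legend of the paper names both full-length C/EBPα and p30 for the CEBPA line. The comparison need therefore not set full-length C/EBPα alone against p30. In CEBPA vs P30, 6 of the 8 genes were lower, where 52.1% of all genes were. The median log2 change of the 8 was -0.72, against -0.04 over 13569 genes. CCND3, CDK2, CDK4 and CCNE1 were at least 1.5-fold lower, 4 of 8 members against 17.8% of all genes. CCND3 and CDK2 were at least 2-fold lower, 2 of 8 members against 5.79% of all genes. No member was higher by 1.5-fold, as 22.3% of all genes were, or by 2-fold, as 13.1% were. CCND3 was the farthest down, with 2.60 times as much in P30 and a log2 change of -1.37, and 1.99% of all genes were as far down. CDK2 had a log2 change of -1.12, CDK4 and CCNE1 of -0.94 each, CCND2 of -0.49 and CCNE2 of -0.30. CDK6 and CCND1 stood slightly higher in CEBPA, at 0.14 and 0.24.

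**Figure D3:**
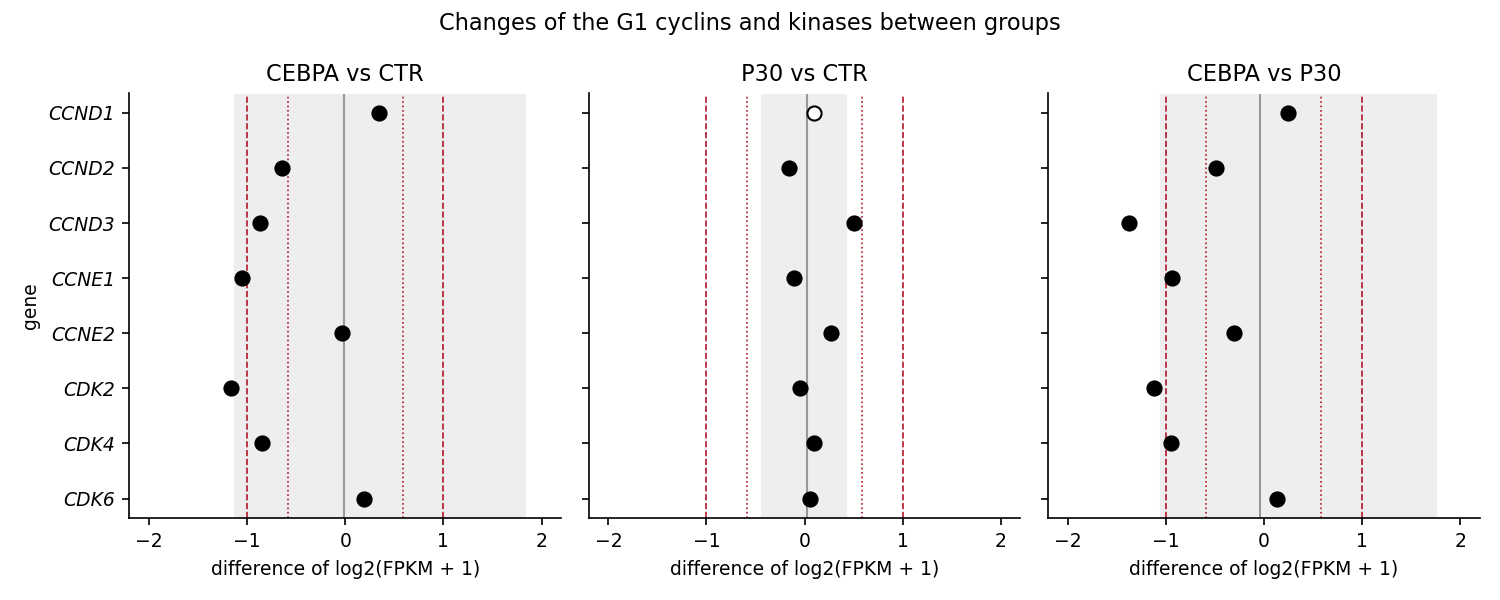
Difference of log2(FPKM + 1) of each gene in CEBPA vs CTR, P30 vs CTR and CEBPA vs P30, from pooled values without error. Dotted and dashed red lines mark 1.5-fold and 2-fold, the grey line the median of all genes compared, the grey band their 5th to 95th percentile (-1.13 to 1.83, -0.43 to 0.42 and -1.05 to 1.75), and the open circle CCND1 at or below 1 FPKM in both groups. CDK2 lies left of the band in both comparisons with CEBPA, CCND3 right of it in P30 vs CTR and left of it in CEBPA vs P30.

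Genes whose pattern over the 3 groups was most like that of the members with the widest range were found by the distance between their log2(FPKM + 1) values after each gene's mean was subtracted. With only 3 values a gene, such likeness is a description. Among 11399 genes over 1 FPKM in every group, RABEP2, VAV1 and SERPING1 lay nearest to CCND3, at distances of 0.04, 0.05 and 0.07, and 5 genes in all lay within 0.1. VAV1, a guanine nucleotide exchange factor of blood cells, had 11.0 FPKM in CTR, 15.6 FPKM in P30 and 5.74 FPKM in CEBPA. RAB1B, H3F3A and UNC13D lay nearest to CDK2, each within 0.02. Of the 11399 genes, 117 lay within 0.1 of CDK2, more than for CCND3.

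Other genes of the G1 pathway were read from fixed lists in the same way, and each count in CEBPA vs CTR stands against the 24.0% of all genes that were higher and the 18.6% that were lower by 1.5-fold or more. Of the INK4 inhibitors, which block CDK4 and CDK6, CDKN2C and CDKN2D were measured and 0 of 2 reached 1.5-fold in CEBPA vs CTR. CDKN2A and CDKN2B were not analysed here. CDKN2C had 56.9 FPKM in CTR, 48.1 FPKM in P30 and 44.8 FPKM in CEBPA. Of the 3 CIP/KIP inhibitors, 1 was higher and 1 was lower by 1.5-fold or more in CEBPA vs CTR. CDKN1A, known as p21, went from 3.20 FPKM in CTR to 5.82 in CEBPA, a log2 change of 0.70, whereas CDKN1C, known as p57, went from 8.78 to 2.56, a log2 change of -1.46. CDKN1B encodes p27, the inhibitor of cyclin E with CDK2. It had 30.4 FPKM in CTR, 32.8 FPKM in P30 and 21.2 FPKM in CEBPA. The CEBPA value was the lowest, at -0.50 on the log2 scale against CTR and -0.61 against P30, the latter just past 1.5-fold lower. The paper describes control of p27 at translation, which RNA levels do not show. The part of p27 in the lower CCNE1 and CDK2 was not tested.

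Of the pocket proteins, the substrates of these kinases, RB1 had 16.9 FPKM in CTR, 17.9 FPKM in P30 and 18.3 FPKM in CEBPA. RBL2, known as p130 and a pocket protein of resting cells, had 26.9, 32.4 and 43.9 FPKM and was the 1 of 3 that reached 1.5-fold in CEBPA vs CTR. RBL1 had 2 rows, of which 1 was above 1 FPKM, at 8.77 FPKM in CTR and 7.59 FPKM in CEBPA. Of 9 E2F and DP factors with a row, 5 were lower and 2 were higher by 1.5-fold or more in CEBPA vs CTR, with a median of -0.67, and the count of those higher is near the share of all genes. E2F1, an activator of the S-phase program, had 22.8 FPKM in CTR, 26.4 FPKM in P30 and 10.8 FPKM in CEBPA. E2F2, another activator, had 13.6, 14.1 and 4.86 FPKM, and E2F8, a repressor, 10.0, 11.7 and 4.20. E2F7, a repressor as well, went the other way, with 5.28, 7.07 and 16.1 FPKM.

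Targets of E2F that act at the start of replication were lower in CEBPA in all 12 genes of their list. In CEBPA vs CTR 50.5% of all genes were below 0. Of the 12, 7 were at least 1.5-fold lower in CEBPA vs CTR, against 18.6% of all genes. The median of the list was -0.66. CDT1, which loads the replicative helicase, had 55.2 FPKM in CTR, 72.0 FPKM in P30 and 20.6 FPKM in CEBPA. TYMS, thymidylate synthase, had 106, 112 and 41.3 FPKM. MCM2, a subunit of that helicase, had 60.1, 75.2 and 33.0 FPKM, and MCM5, another subunit, 80.9, 96.6 and 46.3. In P30 vs CTR all 12 were above 0, as 55.1% of all genes were, with a median of 0.20 against 0.02 over all genes. The scaled median absolute deviation over all genes in this comparison was also 0.20. None of the 12 was 1.5-fold higher, where 2.69% of all genes were. CDC25A and CCNA2 of this list also stand in others.

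Genes that activate the kinases or remove the cyclins were higher and lower in CEBPA vs CTR. The 5 genes of CDK activation include CDK7, CCNH and MNAT1 of the CDK-activating kinase. Of the 5, 3 were above 0 in CEBPA vs CTR, where 49.5% of all genes were. None of the 5 reached 1.5-fold, and their median was 0.28. CDC37, a chaperone of kinases, and CDC25A, a phosphatase that activates CDK2, were the others, at -0.23 and -0.20. Of 8 genes of cyclin turnover with a row, 2 were at least 1.5-fold higher and none lower in CEBPA vs CTR, and the count of those higher is near the 24.0% of all genes. FBXO4 and CKS1B, a cofactor of SKP2, were below 0, at -0.56 and -0.53, and FBXO4 was past 1.5-fold lower in CEBPA vs P30, at -0.61. FBXW7, the ubiquitin ligase subunit that recognizes cyclin E, had 6.23 FPKM in CTR, 7.01 FPKM in P30 and 18.9 FPKM in CEBPA. Its log2 change in CEBPA vs CTR was 1.46. SKP2, the ligase subunit that recognizes p27, was the other gene past 1.5-fold higher, with 42.6, 44.5 and 84.5 FPKM.

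Cyclins and CDK of later phases were mostly lower too. In the list of S to M phase cyclins and CDK, 5 genes were compared. Of these, 4 were below 0 in CEBPA vs CTR, where 50.5% of all genes were. At least 1.5-fold lower were 2 of the 5, against 18.6% of all genes. The median of the list was -0.38, where the 8 G1 genes had -0.75. In CEBPA vs P30 the medians were closer, at -0.67 and -0.72, and the difference between the lists was not tested. CCNB2, a mitotic cyclin, and CCNF were those past 1.5-fold in CEBPA vs CTR, at -0.88 and -0.79. CCNB1 of mitosis had 142 FPKM in CTR, 143 FPKM in P30 and 153 FPKM in CEBPA, and CDK1 had 203, 210 and 156. CCNA1, the germ-line and myeloid cyclin A, was at or below 1 FPKM in all groups and so was not compared. It had 0.0149 FPKM in CTR, 0.00617 FPKM in P30 and 0.580 FPKM in CEBPA. Without the filter its log2 change in CEBPA vs CTR was 0.64, past 1.5-fold higher, from values this low. In P30 vs CTR no gene of the inhibitor, pocket protein, E2F, activation, turnover and later-phase lists reached 1.5-fold in either direction. Of all genes, only 2.69% were higher and 2.63% lower by that limit, so 0 in lists this short is near the share of all genes.

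**Figure D4:**
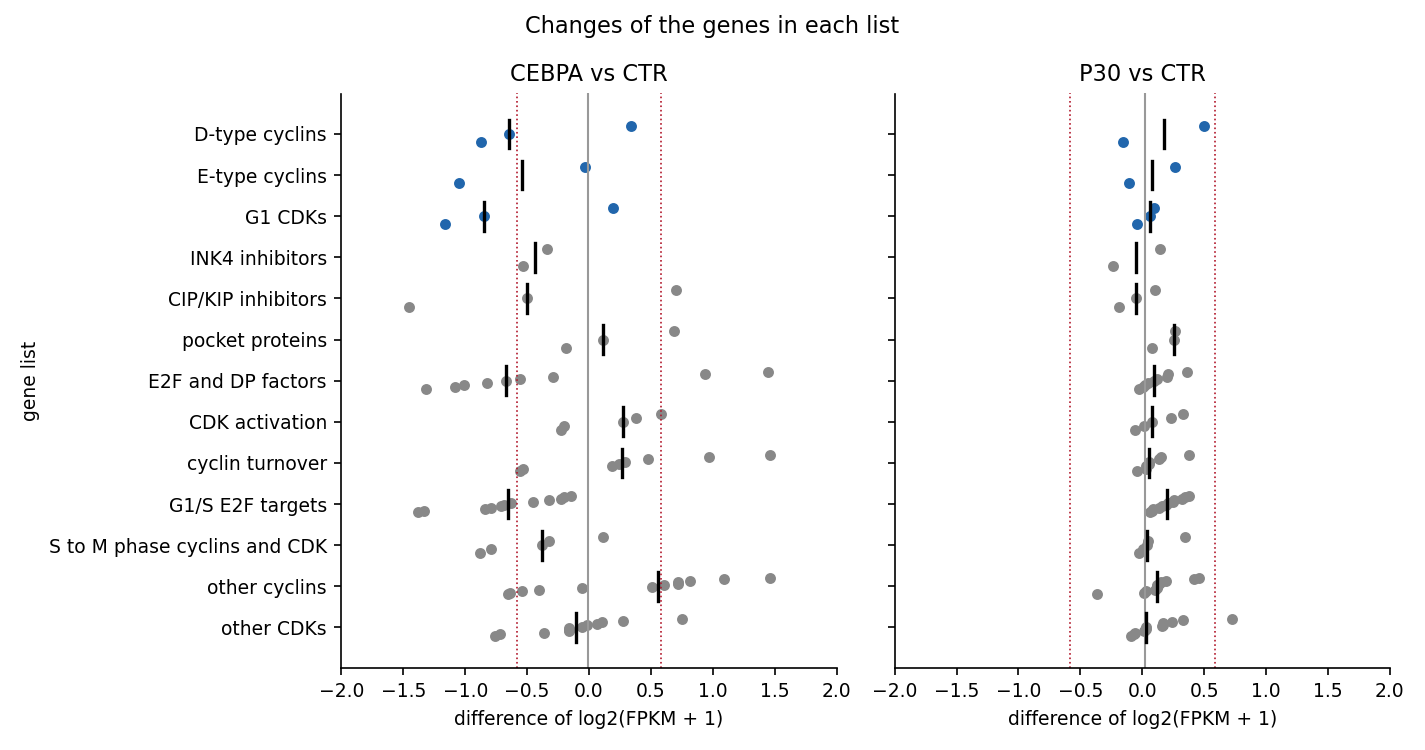
Difference of log2(FPKM + 1) of each gene compared (points) in 13 lists of cell cycle genes, for CEBPA vs CTR (left) and P30 vs CTR (right), from pooled values without error, with the G1 cyclins and kinases in blue, black bars at the median of each list, the grey line at the median of all genes and dotted lines at 1.5-fold. In CEBPA vs CTR all 12 G1/S E2F targets lie left of 0, where 50.5% of all genes do. The other cyclins spread from -0.66 to 1.46 there. In P30 vs CTR 1 gene, among the other CDKs, lies beyond 1.5-fold, where 2.69% of all genes were higher and 2.63% lower.

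Some of the members overlap other genes, and how Cuffdiff was told to use strand is not given in the sources used here, although the libraries were stranded. CDK2 lies wholly within the span of PMEL on the opposite strand, and PMEL had 5.41 FPKM in CTR, 2.81 FPKM in P30 and 1.10 FPKM in CEBPA, far under CDK2 in each group. CDK4 overlaps TSPAN31 over 2493 bases on the opposite strand, and TSPAN31 had 28.0, 24.0 and 22.3 FPKM. CCND1 overlaps LTO1 over 1399 bases on the opposite strand, and LTO1, with 12.1, 13.7 and 14.6 FPKM, was above CCND1 in every group, so that reads shared between them would weigh most on CCND1. CCND2 overlaps its antisense RNA CCND2-AS1, which had only 0.347, 0.135 and 0.388 FPKM. In the later Gencode release CCND2 also overlaps a protein-coding gene (ENSG00000285901) over 31592 bases on the same strand, so strand could not separate them. That gene was not analysed here. CCNE2 overlaps INTS8 over 1977 bases and NDUFAF6 over 1146 bases, both on the opposite strand. INTS8 had 63.6, 58.4 and 53.5 FPKM and NDUFAF6 17.9, 22.0 and 23.5, both above CCNE2 in every group. CDK6 overlaps a non-coding RNA gene (ENSG00000287932) over 4119 bases on the same strand. That gene and the others that overlap CDK6 and CCND3 were not analysed here. CCNE1 overlaps no annotated gene. The part of shared reads in these values was not tested.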

How the data were processed

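RNA-seq of 6 K562 samples was used, 2 replicates each of CTR, CEBPA and P30 cells. The authors mapped the reads to hg19 (TopHat), built transcripts with a Gencode reference (Cufflinks) and deposited FPKM from Cuffdiff, 1 value per gene and group with replicates pooled, in 3 tables. The submitters' processing notes name TopHat2 2.0, CASAVA 1.4 and Cuffdiff. The RNA of the replicates was sequenced in separate runs on different instruments, which the pooled values do not separate. Depth per sample is unknown from FPKM, and no count was recovered. How rows were selected for each table is not given in the sources used here. No column was left out.

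Differences of log2(FPKM + 1) were computed for genes above 1 FPKM in 1 or both groups of a comparison. The value of each member was the same in every table. Rows with the same symbol were kept apart. Calls are at 1.5-fold and 2-fold on that scale. No test was possible on pooled values, so limma, the test set for values per replicate, was not run. The genes named are the members, CDKN1B, up to 4 genes of each list with a 2-fold difference in any comparison, and the nearest genes in pattern. CDKN1A, CDKN2C, RB1, RBL1, RBL2, CDK7, CCNH, MNAT1, CDC25A, CCNA1, CCNA2, SKP2, FBXO4, CKS1B, CDC37, TFRC, CCNF, CCNB2, CCNB1, CDK1 and the overlapping genes were named after their values were seen. A further erythroid marker beside the 5 with values is not reported here. Members and lists were chosen with earlier results of these data known. Start-site windows were from RefSeq (GRCh38.p14) and each was matched exactly to 1 position of GRCh37. The computation was tested on simulated data. Alternatives were a pseudocount of 0.1, centring on the median, summed rows, no filter, a filter at 5 FPKM, and only genes in all 3 tables. Python 3.11.15, numpy 2.4.6, pandas 2.3.3 and matplotlib 3.10.9 were used.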

Additional observations from a re-analysis of the deposited data

How the results depend on the processing

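No paired analysis was possible because each deposited column pools the replicates of a group. A fit with a replicate block, and fits that leave out a replicate, could not be run either. In place of replicate error, working limits were set: 0.20 for log2 values and for ratios on the log2 scale (the scaled median absolute deviation of all genes in P30 vs CTR), 1.5 times for counts and 1 percentage point for shares. The alternatives gave 808 values for 143 results, of which 792 lay inside these limits and 16 outside, and 0 called changes turned direction. Many of the 792 were fixed in advance, so this count does not measure robustness. Each member had 1 row with the same value in every table. Summing rows, altering the filter or keeping only genes in all tables therefore could not alter the log2 change of a member. Centring shifted each change by the median over all genes, inside the 0.20 limit in every comparison. Only the pseudocount could thus put the change of a member outside its limit. No change of a member changed sign under any alternative that could be computed for it. A pseudocount keeps the direction of a difference, so only centring could have turned a sign. With a pseudocount of 0.1, 1 member in place of 0 was at least 1.5-fold higher in CEBPA vs CTR, CCND1 with a log2 change of 0.69, and CCND2 in CEBPA vs P30 went to -0.70. With a filter at 5 FPKM, which drops CCND1 and CCND2, the median of the members in CEBPA vs P30 was -0.94. Depth, which sets how well the low values of CCND1 and CCND2 are known, is unknown.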

Other observations

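Cyclins and CDKs outside the G1 set were looked at as well. Of 12 other cyclins, which mostly act in transcription or stress responses, 6 were higher and 2 were lower by 1.5-fold or more in CEBPA vs CTR, where 24.0% of all genes were higher and 18.6% lower, with a median log2 change of 0.56 where the G1 cyclins and kinases had -0.75. CCNG2, a cyclin known from arrested cells, had 5.79 FPKM in CTR, 8.07 FPKM in P30 and 17.7 FPKM in CEBPA. CCNC, the cyclin of the Mediator kinase module, had 60.3, 68.9 and 130 FPKM. Of 12 other CDKs compared in CEBPA vs CTR, 1 was higher and 2 were lower by 1.5-fold, shares at or under those of all genes, with a median of -0.11. In P30 vs CTR 2.69% of all genes were higher and 2.63% lower by 1.5-fold. CDK18 was the 1 gene of these lists past that limit. It had 0.512 FPKM in CTR, 1.5 FPKM in P30 and 0.115 FPKM in CEBPA, at a depth that is unknown. It passed the filter through the P30 value alone, and with a filter at 5 FPKM 0 of these CDKs were past 1.5-fold higher. These values are pooled over replicates and were not tested.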
